A study of Mus musculus with 12 samples.

Results

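The 10 genes H2-K1, H2-D1, B2m, Tap1, Tap2, Tapbp, Nlrc5, Psmb8, Psmb9 and Psmb10 of the class I antigen presentation pathway were followed through RNA-seq of 3 mouse lines. They are the rows of the deposited count table that carry these gene names, 10 of 34513 genes, and all 10 passed edgeR's filter on low counts, which left 18338 genes for testing. Total RNA had been taken from cultures of MelanA, which the labels call a nontumorigenic murine line, and of the melanoma lines B16F0 and B16F10. Each line was sampled untreated and after SX-682, an antagonist of the chemokine receptors CXCR1 and CXCR2, with 2 libraries in each of the 6 groups and 12 libraries in all. The dose and time of SX-682 in these cultures are not given in the sources used here, and the untreated groups are described as receiving no treatment rather than a vehicle. Nothing in the labels says that the 2 libraries of a group came from separate cultures, so p-values measure the spread between these libraries, which may be technical. Each line is a single established line, so a difference between lines is a difference between these 3 cultures.

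Class I molecules display peptides from a cell's own proteins to CD8 T cells. Peptides are cut by the proteasome, carried into the endoplasmic reticulum by the TAP transporter, and loaded onto a heavy chain paired with beta 2-microglobulin. Interferon is known to raise most genes of the pathway and to replace the constitutive catalytic proteasome subunits by the immunoproteasome subunits. In melanoma the pathway is known for its loss or low expression in tumors that escape T cells, and B16 lines are known for low class I at the cell surface. RNA levels were measured here, not protein or surface display.

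Of the 10 genes, 7 lie on chromosome 17, 2 (Nlrc5 and Psmb10) on chromosome 8 and 1 (B2m) on chromosome 2 in GRCm38. Psmb9, Tap1, Psmb8 and Tap2 are 4 neighbours within 34.3 kb, at chr17:34181987-34216321. H2-K1 (chr17:33996017-34000347, minus strand) and H2-D1 (chr17:35262730-35267499, plus strand) encode the classical heavy chains, whose sequences are close to those of other class I genes. In the transcripts of GENCODE M21, H2-K1 shared 2.38% of its stretches of 75 bases with H2-Q10 and 0.642% with H2-D1, and H2-D1 shared 4.25% with H2-Q1, so a small part of their counts is uncertain. Exons of Tap1 (chr17:34187553-34197225, plus strand) and Psmb9 (chr17:34181987-34187764, minus strand) overlap by 212 bases on opposite strands. The strand setting of the counting is not given in the sources used here, so reads from that overlap cannot be told apart. The largest overlap with exons of a single other gene covered 24.9% of Tapbp, 14.1% of Tap2 and 14.7% of Psmb8, on the opposite strand. Tapbp and Tap2 each overlapped exons of 2 other genes, and these shares leave out the smaller overlap.

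Promoter windows from RefSeq (GRCm38.p6, 250 bases before to 50 bases after the start site) were found for 8 of the 10 genes, in 9 windows. Tap2 and Nlrc5 were not among them. They are shown because Nlrc5 is known to act on a module of elements before class I genes that includes an X2 box and a Y box, and because H2-K1 and H2-D1 were both higher in each B16 line than in MelanA. The windows were searched on both strands for the X2 or CRE core TGACG, the Y box CCAAT, the kappa B site GGNNTTCCC, the interferon element ISRE core GAAANNGAA and the STAT element GAS TTCNNNGAA. Capitals mark every match in either orientation, and no matches overlapped in the windows printed here, which run 5′ to 3′ on the gene's strand.
H2-K1, chr17:34000298-34000597, minus strand: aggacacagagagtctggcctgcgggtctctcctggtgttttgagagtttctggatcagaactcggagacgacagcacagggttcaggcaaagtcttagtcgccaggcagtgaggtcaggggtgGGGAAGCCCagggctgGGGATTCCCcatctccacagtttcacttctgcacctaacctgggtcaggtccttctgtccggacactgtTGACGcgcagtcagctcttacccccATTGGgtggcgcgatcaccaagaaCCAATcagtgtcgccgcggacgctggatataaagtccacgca
H2-D1, chr17:35262844-35263143, plus strand: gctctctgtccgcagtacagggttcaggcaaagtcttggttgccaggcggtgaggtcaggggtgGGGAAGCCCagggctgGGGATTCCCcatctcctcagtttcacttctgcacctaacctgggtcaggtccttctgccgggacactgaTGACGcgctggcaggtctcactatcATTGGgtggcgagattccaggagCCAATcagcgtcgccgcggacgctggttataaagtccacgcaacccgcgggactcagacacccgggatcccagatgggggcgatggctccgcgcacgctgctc
B2m, chr2:122147437-122147736, plus strand: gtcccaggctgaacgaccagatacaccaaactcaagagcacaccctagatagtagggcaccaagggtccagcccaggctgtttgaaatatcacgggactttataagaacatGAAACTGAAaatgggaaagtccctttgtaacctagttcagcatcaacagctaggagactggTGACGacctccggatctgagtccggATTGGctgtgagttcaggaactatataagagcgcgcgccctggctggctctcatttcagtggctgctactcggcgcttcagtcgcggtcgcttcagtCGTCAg
Tap1, chr17:34187306-34187605, plus strand: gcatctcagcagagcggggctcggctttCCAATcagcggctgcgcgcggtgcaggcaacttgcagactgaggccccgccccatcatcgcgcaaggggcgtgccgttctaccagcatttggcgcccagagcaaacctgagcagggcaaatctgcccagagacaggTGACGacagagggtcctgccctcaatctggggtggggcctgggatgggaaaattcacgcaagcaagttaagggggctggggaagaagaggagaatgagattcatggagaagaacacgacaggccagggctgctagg

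The X2 core was found in 5 of the genes, H2-K1, H2-D1, B2m, Tap1 and Psmb9, beside 20.8% of all 32851 promoter windows in the table. A Y box was found in 6, the same 5 and Tapbp, beside 37.4% of all windows. In H2-K1, H2-D1 and B2m the letters TGACG were followed 25 bases on by ATTGG, the Y box on the other strand. That spaced pair was found in 31 windows, 0.0944% of all, and the spacing was chosen after the matches had been seen. H2-K1 and H2-D1 also carried kappa B matches (5.82% of all windows), in each gene starting 69 bases before the X2 core for the nearer match. From the first kappa B match to the Y box their 115 bases differed at 11. B2m had an ISRE core (8.56% of all windows) and Psmb8 a GAS match (8.3%). The search covered the exact patterns given above, and interferon elements spelled with other letters were not searched for. The lack of an ISRE core match in H2-K1 and H2-D1 therefore does not show that their windows lack an interferon element. Psmb10 had no match to any of the 5 patterns. The start sites of Tap1 and Psmb9 were 226 bases apart on opposite strands and their windows shared 275 bases, so the X2 core and Y box of Tap1 printed above are those of Psmb9 read from the other side. A match is a description of the letters and not a measured binding site.

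Library totals ran from 48876982 to 85322092 counts. A count of 3 in a library, taken as the floor, corresponds to 0.033 to 0.0623 CPM (counts scaled by library total and TMM factor), and floors and intervals cover counting error only. Counts of the melanocyte genes Sox10, Dct, Tyrp1 and Mlana were present in every library. In the MelanA libraries Tyr had 19 to 77 counts and Oca2 7 to 20. Pmel averaged 8.11 CPM in untreated MelanA against 4512 in B16F0 and 5337 in B16F10. Of 10 melanocyte lineage markers, 9 were higher and 1 lower in untreated B16F0 than in untreated MelanA (median log2 difference 5.77). In B16F10, 8 were higher and 2 lower (median 5.45). Of all tested genes, 35.3% and 33.4% were higher in these comparisons, and 40.6% and 40.8% lower. Kit was low in both MelanA (4 to 25 counts) and B16F10 (0 to 3). The labels name the line only as MelanA and nontumorigenic, and with these low melanocyte genes its identity could not be settled from the libraries, so each difference from MelanA is a difference from the libraries labelled MelanA. Of 9 leukocyte markers in the table, Lyz2 (598 to 642 counts) and Csf1r (173 to 184) were counted in untreated MelanA, the other 7 had 22 counts or fewer in every library, and Lyz2 had 7 to 29 counts in the untreated B16 libraries. Of 5 fibroblast markers, Lum (619 to 638 counts), Dcn (203 to 239) and Col1a1 (46.4 CPM against 5.79 in B16F0 and 2.59 in B16F10) had their highest untreated levels in MelanA, whereas Col1a2 was higher in both B16 lines (0.764 CPM against 2.36 and 5.14) and Pdgfra was highest in B16F0 (8.11 CPM, with 329 to 378 counts in MelanA). Of 5 keratinocyte markers, Krt10 (265 to 298 counts) and Trp63 (187 to 219) stood out in untreated MelanA. Of 4 endothelial markers, Pecam1 was the highest, at 1.03 CPM in untreated MelanA. With SX-682, MelanA had lower mean levels of Lum (1.33 CPM against 7.10), Dcn, Trp63, Krt10 and Lyz2, near equal Col1a1 (46.0 against 46.4), and higher Csf1r (2.26 against 2.02), Pecam1 (1.51 against 1.03) and Pdgfra (4.57). The part of these markers in the results for the presentation genes was not tested. In bulk RNA, fewer cells of a type and less RNA per cell cannot be told apart.

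The untreated lines were compared first, to see how much of the pathway each line transcribes before the drug. In untreated B16F0, 6 of the 10 genes were higher than in untreated MelanA and 3 were lower, beside 35.3% of all tested genes higher and 40.6% lower. In untreated B16F10, 9 were higher than in MelanA and 1, Tapbp, was lower, beside 33.4% and 40.8% of all genes. All 10 were higher in B16F10 than in B16F0, beside 30.8% of all genes higher and 31.2% lower. The median log2 difference of the 10 genes was 0.79, 1.93 and 1.14 in these comparisons, against -0.06, -0.10 and -0.0017 over all tested genes. The comparisons share libraries with each other, and they share the untreated libraries with the SX-682 comparisons.

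H2-K1 had the largest difference of the 10 genes between MelanA and either B16 line. It had 20 and 31 counts (0.232 and 0.341 CPM) in the untreated MelanA libraries, 95.9 and 94.9 CPM in B16F0, and 173 and 175 CPM in B16F10. The MelanA libraries were far below every B16 library, and the B16F10 libraries were above the B16F0 libraries. From the counts, H2-K1 was 332 times as high in B16F0 as in MelanA (95% counting interval 252 to 446) and 605 times as high in B16F10 (460 to 812). Its 20 and 31 counts stood beside 4142 and 4368 counts of H2-D1 in the same libraries. In the untreated B16 libraries H2-K1 had 6383 to 11199 counts. The part in the MelanA counts of reads shared between genes or carried between libraries was not tested. Counts are of reads placed on the reference genome. Whether the class I sequences of each line match that reference, and so whether reads were lost, was not tested.

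H2-D1 was measured well in every line, at 48.0 and 48.1 CPM in MelanA, 264 and 257 in B16F0, and 379 and 396 in B16F10. It was higher than in MelanA by 2.44 on the log2 scale in B16F0 (SE 0.035, adjusted p = 3.7e-31) and by 3.01 in B16F10 (SE 0.035, adjusted p = 2.7e-33), and B16F10 exceeded B16F0 by 0.57 (SE 0.031, adjusted p = 4.2e-16). No library of one line overlapped those of another. Per kilobase of the deposited gene length, H2-K1 was at 0.523% ± 0.14 (SD, n = 2) of H2-D1 in MelanA, 32.1% ± 0.35 in B16F0 and 39.5% ± 0.84 in B16F10. With principal coding transcript lengths these were 0.774%, 47.5% and 58.4%, so the size of the ratio depends on the length chosen.

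B2m, the light chain shared by class I molecules, kept another order. Its libraries stood at 396 and 406 CPM in MelanA, 284 and 287 in B16F0, and 629 and 626 in B16F10. B16F0 was therefore the lowest line, by 0.49 on the log2 scale below MelanA (-0.49, SE 0.025, adjusted p = 5.3e-17), and B16F10 the highest, by 0.65 above MelanA (SE 0.025, adjusted p = 3.7e-20).

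**Figure D1:**
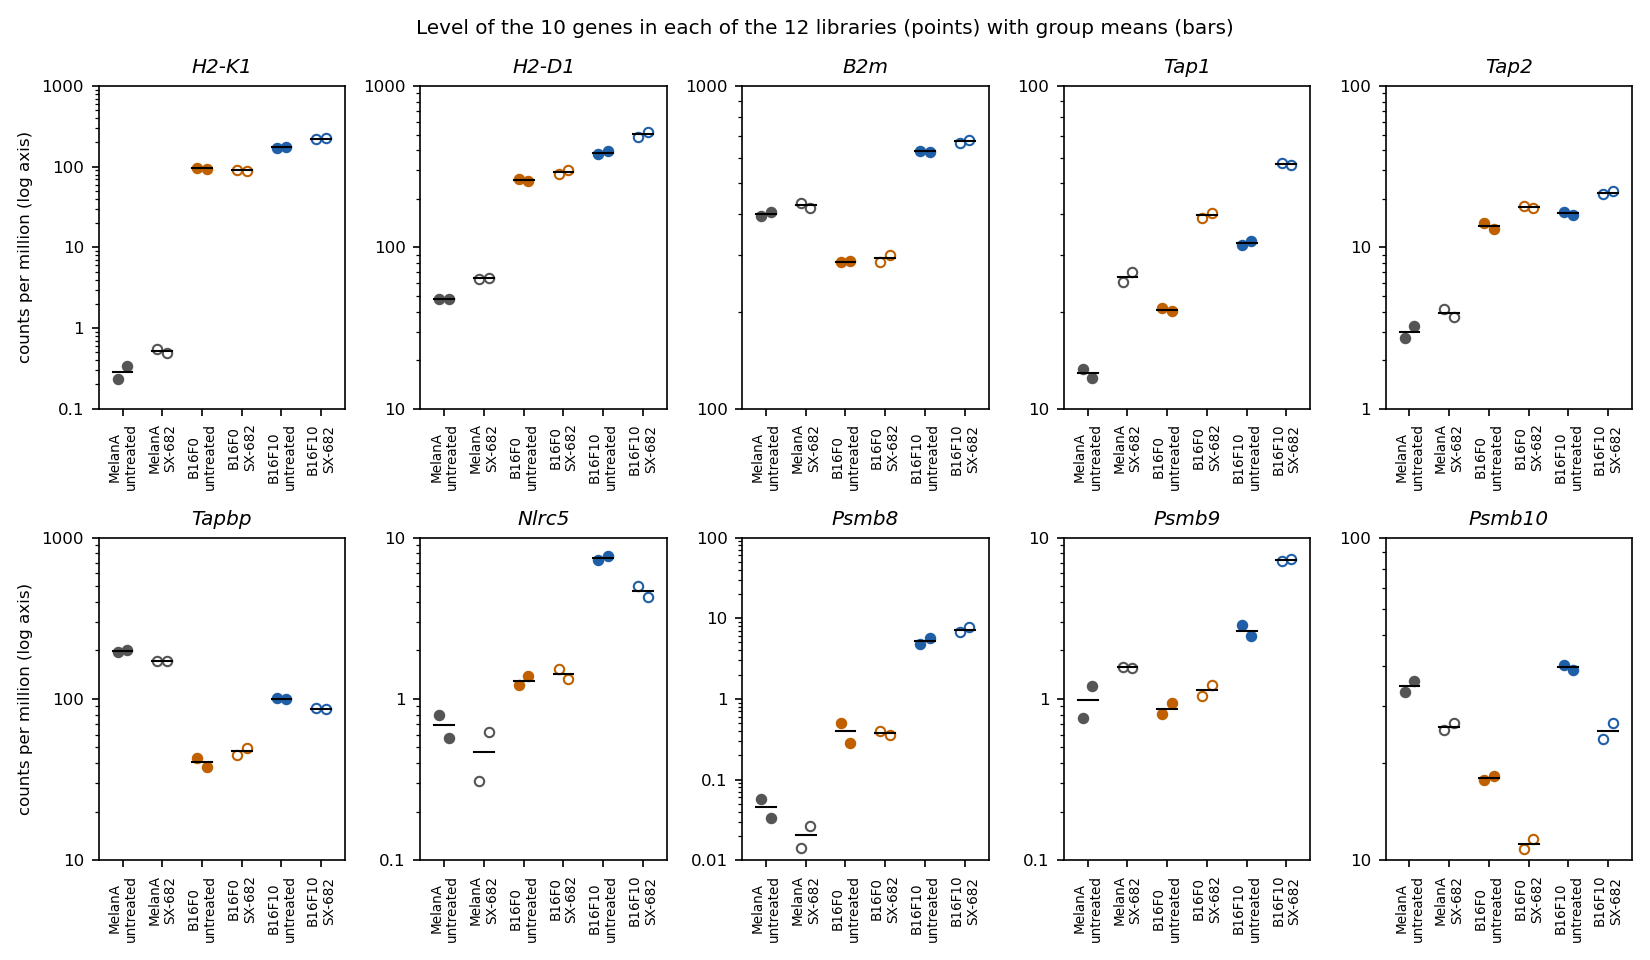
Level of each of the 10 genes as CPM on a log axis, with a separate scale in each panel. Points are libraries, filled when untreated and open with SX-682, and bars are the means of 2 libraries. H2-K1 is below 1 CPM in the 4 MelanA libraries and between 88.8 and 224 CPM in the 8 B16 libraries, Tapbp is highest in MelanA, and Psmb8 is below 0.1 CPM in MelanA.

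Tap1 and Tap2 together form the peptide transporter. Tap1 had 13.3 and 12.5 CPM in MelanA, 20.5 and 20.1 in B16F0, and 32.1 and 33.2 in B16F10, a rising order of lines with no overlap (log2 difference 0.65 for B16F0 and 1.34 for B16F10 against MelanA, SE 0.057 and 0.055). Tap2 had 2.73 and 3.25 CPM in MelanA, 14.1 and 13.0 in B16F0, and 16.7 and 15.9 in B16F10. It was above MelanA by 2.18 in B16F0 and by 2.44 in B16F10 on the log2 scale (SE 0.094 and 0.093, adjusted p = 6.3e-19 and 3.3e-20). The step from B16F0 to B16F10 was small for Tap2 (0.26, SE 0.08, adjusted p = 0.0047), and it was not called without replicate 2 of untreated B16F0 (0.21, adjusted p = 0.068) or with library totals (0.17, adjusted p = 0.063). Tap2 stood per kilobase at 33.7% ± 5.5 (SD, n = 2) of Tap1 in MelanA, 96.7% ± 4.4 in B16F0 and 72.2% ± 4.2 in B16F10. With principal coding transcript lengths these were 19.98%, 57.3% and 42.8%, in the same order of lines.

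Tapbp, which encodes tapasin, the bridge between TAP and the empty heavy chain, was the gene that was lower in both B16 lines than in MelanA. It had 196 and 201 CPM in MelanA, 42.8 and 38.1 in B16F0, and 101 and 99.9 in B16F10. It was lower than in MelanA by 4.90-fold in B16F0 (log2 difference -2.29, SE 0.042, adjusted p = 2e-28) and by 1.98-fold in B16F10 (-0.98, SE 0.039, adjusted p = 6.6e-20).

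Nlrc5 encodes the transactivator of class I genes. Its libraries held 0.799 and 0.572 CPM in MelanA (69 and 52 counts), 1.21 and 1.38 in B16F0, and 7.26 and 7.73 in B16F10. B16F10 was above B16F0 by 5.77-fold (log2 difference 2.53, SE 0.21, adjusted p = 5.6e-12), whereas B16F0 was above MelanA by 1.89-fold (0.92, SE 0.24, adjusted p = 0.0012).

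The immunoproteasome genes encode 3 catalytic subunits, and they differed from each other. Psmb8, the chymotrypsin-like subunit beta 5i, had 5 and 3 counts in the untreated MelanA libraries (0.0579 and 0.033 CPM), 38 and 19 counts in B16F0 (0.507 and 0.283 CPM), and 286 and 360 counts in B16F10 (4.73 and 5.63 CPM). MelanA was near the floor. From the counts Psmb8 was 8.88 times as high in B16F0 (95% counting interval 4.22 to 21.6) and 115 times as high in B16F10 (58 to 268) as in MelanA. B16F10 was above B16F0 by 3.69 on the log2 scale (SE 0.25, adjusted p = 6.1e-14), the largest difference of the 10 genes between these lines.

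Psmb9, the subunit beta 1i, had 66 and 109 counts in MelanA (mean 0.982 CPM), 0.801 and 0.937 CPM in B16F0, and 2.86 and 2.44 CPM in B16F10. The MelanA and B16F0 libraries overlapped (log2 difference -0.18, 95% interval -0.67 to 0.30, adjusted p = 0.49). B16F10 was above MelanA by 1.43 (SE 0.21, adjusted p = 6.2e-07) and above B16F0 by 1.61 (SE 0.22, adjusted p = 2.2e-07). Psmb10, the trypsin-like subunit beta 2i, was far more abundant, at 33.3 and 35.9 CPM in MelanA, 17.8 and 18.2 in B16F0, and 40.4 and 38.9 in B16F10. B16F0 was the lowest line, by 1.92-fold below MelanA (log2 difference -0.94, SE 0.06, adjusted p = 9.9e-15). The higher level of Psmb10 in B16F10 than in MelanA (0.20, SE 0.057, adjusted p = 0.0027) depended on scaling. With library totals in place of TMM the difference was 0.01 (adjusted p = 0.88), and the median of all genes moved by -0.19 in that comparison.

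**Figure D2:**
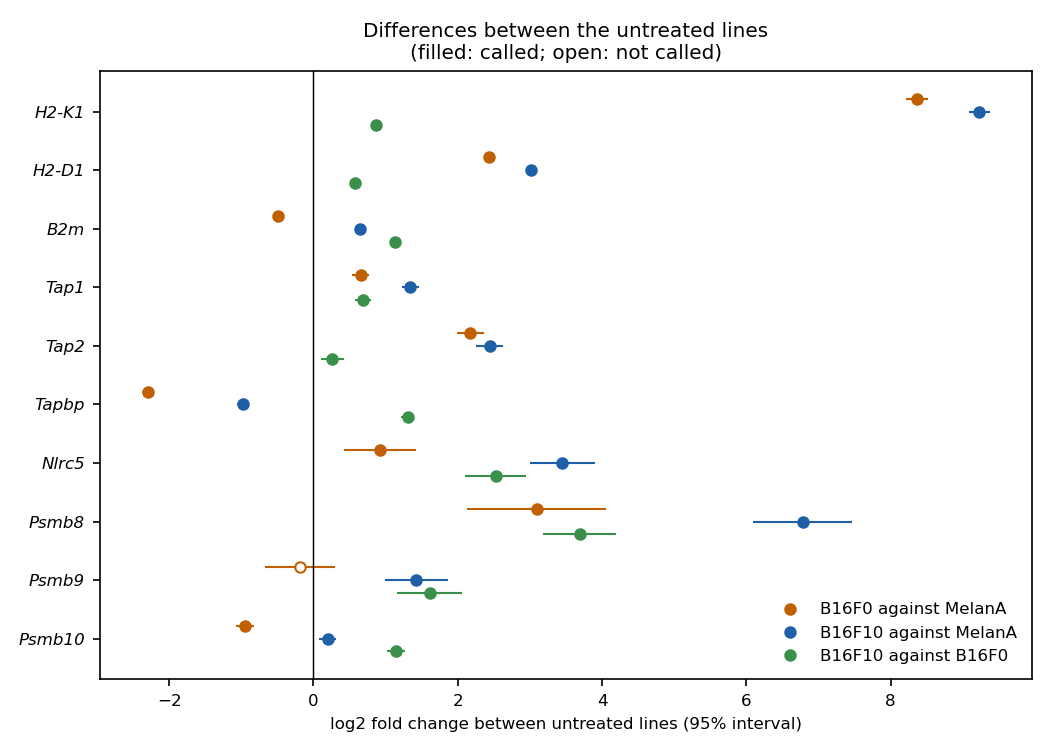
Differences between untreated lines for the 10 genes. The x axis is the log2 fold change with its 95% interval, filled points passed an adjusted p of 0.05 and open points did not. Only Psmb9 in B16F0 against MelanA is open, every green point (B16F10 against B16F0) is to the right of 0, and the MelanA values behind H2-K1 and Psmb8 rest on 51 and 8 counts.

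Compared per kilobase within a line, B2m was the most abundant of the 10 genes in every untreated line, at 466, 332 and 730 CPM per kb in MelanA, B16F0 and B16F10. In B16F10 it was followed by H2-D1 (150), H2-K1 (59.2), Tapbp (27.7), Psmb10 (23.3), Tap1 (5.97), Tap2 (4.31), Psmb8 (1.53), Nlrc5 (0.882) and Psmb9 (0.724). The order in B16F0 was the same down to Tap2, but neighbours there were not separated, since the libraries of Tapbp (11.8 and 10.5) and Psmb10 (10.4 and 10.7) overlapped, as did those of Tap1 and Tap2 and of Nlrc5 and Psmb8. In MelanA Tapbp (54.7) and Psmb10 (20.3) came before H2-D1 (18.6), and H2-K1 (0.0975) and Nlrc5 (0.0807) overlapped. Deposited lengths count every annotated exon. With the length of the principal coding transcript instead, Psmb9 (1.96) passed Nlrc5 (0.989) in B16F10, Psmb8 (0.243) passed Nlrc5 (0.171) in B16F0, and Tap1 (6.86) and Tap2 (3.93) no longer overlapped in B16F0.

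The second question was how SX-682 moved the pathway within each line. With SX-682, 6 of the 10 genes rose and 2 fell in MelanA, beside 23.4% of all tested genes higher and 24.7% lower. In B16F0, 4 rose and 2 fell, beside 25.1% and 25%. In B16F10, 7 rose and 3 fell, beside 25.5% and 25.3%. Tap1, Tap2 and H2-D1 rose and Psmb10 fell in all 3 lines, 3 and 1 of the 10 genes, beside 11.3% and 11.7% of all genes. The median log2 fold change of the 10 genes was 0.24 in MelanA, 0.16 in B16F0 and 0.36 in B16F10, against 0 over all tested genes in each line. With a further limit of at least 0.5 on the log2 fold change in either direction, 3 of the 10 genes were called in MelanA, 2 in B16F0 and 4 in B16F10, beside 16.3%, 19.4% and 21.5% of all tested genes.

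Tap1 rose in every line. Its level with SX-682 was 24.7 and 26.6 CPM in MelanA, 39.0 and 40.4 in B16F0, and 57.7 and 57.1 in B16F10. Every treated library was above both untreated libraries of its line. The rise was 1.99-fold in MelanA (log2 fold change 0.99, SE 0.056, adjusted p = 3.1e-15), 1.96-fold in B16F0 (0.97, SE 0.053, adjusted p = 1.8e-15) and 1.75-fold in B16F10 (0.81, SE 0.05, adjusted p = 1.8e-14). Tap2 rose less, to 4.14 and 3.73 CPM in MelanA, 18.1 and 17.6 in B16F0, and 21.5 and 22.3 in B16F10. Its log2 fold changes of 0.39, 0.40 and 0.43 lay within one another's errors (SE 0.11, 0.08 and 0.078), and the call in MelanA was lost without untreated replicate 1 (0.28, adjusted p = 0.077) or treated replicate 1 (0.33, adjusted p = 0.052). Tap2 as a percent of Tap1 per kilobase was correspondingly lower with SX-682, at 22.3% ± 2.8 in MelanA, 65.2% ± 2.9 in B16F0 and 55.3% ± 1.9 in B16F10 (SD, n = 2).

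H2-D1 had 64.1 and 65.1 CPM with SX-682 in MelanA, 285 and 301 in B16F0, and 486 and 522 in B16F10. All treated libraries were above the untreated ones of their line. It rose by 0.43 on the log2 scale in MelanA (SE 0.036, adjusted p = 3.4e-11), by 0.17 in B16F0 (SE 0.031, adjusted p = 3.6e-05) and by 0.38 in B16F10 (SE 0.031, adjusted p = 6.5e-12). H2-K1 did not follow it in every line. In B16F10 it reached 218 and 224 CPM and rose by 0.35 (SE 0.031, adjusted p = 6.3e-11), while in B16F0 the treated libraries, at 90.9 and 88.8 CPM, were below the untreated ones (-0.09, SE 0.033, adjusted p = 0.031).

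That fall of H2-K1 in B16F0 was 1.06-fold. It was not called by DESeq2 (adjusted p = 0.11), with RLE scaling (0.075) or with the B16F0 libraries alone (0.053). Nor was it called without untreated replicate 1 (log2 fold change -0.08), untreated replicate 2 (-0.10) or treated replicate 2 (-0.07). In MelanA, H2-K1 went from 20 and 31 to 39 and 37 counts (0.547 and 0.493 CPM). This called rise of 0.85 (SE 0.23, adjusted p = 0.0033) stayed below 1 CPM. The call was lost without untreated replicate 1 (0.61) and with the MelanA libraries alone (0.86, adjusted p = 0.077). B2m changed little. It had 434 and 420 CPM with SX-682 in MelanA, 285 and 300 in B16F0, and 665 and 681 in B16F10. The log2 fold changes were 0.09 in MelanA (SE 0.025, adjusted p = 0.0026), 0.03 in B16F0 (95% interval -0.02 to 0.09, adjusted p = 0.29) and 0.10 in B16F10 (SE 0.025, adjusted p = 0.00089). In B16F0 the treated and untreated libraries overlapped, and the B2m change was called without treated replicate 1 (0.07, adjusted p = 0.027).

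**Figure D3:**
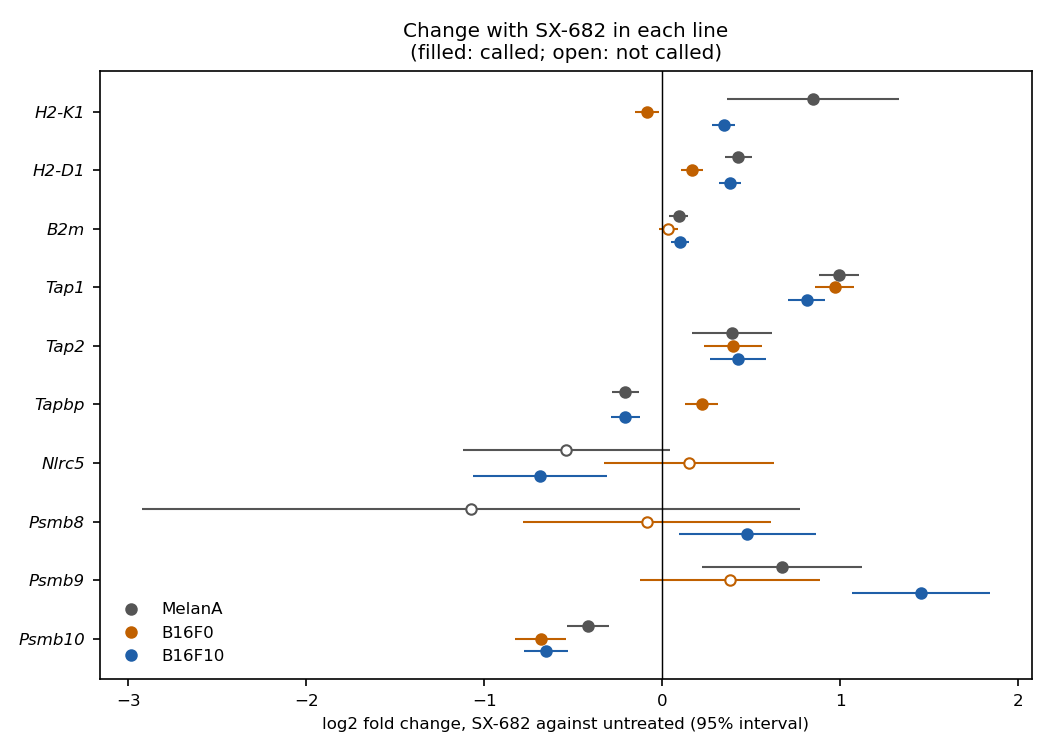
Change of the 10 genes with SX-682 in MelanA, B16F0 and B16F10. The x axis is the log2 fold change against untreated libraries with its 95% interval, filled points passed an adjusted p of 0.05 and open points did not. Tap1 lies between 0.81 and 0.99 in the 3 lines, Psmb10 is left of 0 in all 3, and the wide interval of Psmb8 in MelanA comes from 8 untreated and 3 treated counts.

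Tapbp moved in both directions. With SX-682 it had 172 and 171 CPM in MelanA, 45.0 and 49.9 in B16F0, and 87.8 and 86.3 in B16F10. It fell by 0.21 on the log2 scale in MelanA (SE 0.037, adjusted p = 2.1e-05) and by 0.21 in B16F10 (SE 0.041, adjusted p = 7.2e-05), and it rose by 0.22 in B16F0 (SE 0.046, adjusted p = 0.00017). The B16F0 value was 0.14 without untreated replicate 2, and still called (adjusted p = 0.024).

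Nlrc5 fell in B16F10, where its libraries went from 439 and 494 to 303 and 252 counts (means 7.49 and 4.65 CPM) (log2 fold change -0.69, SE 0.18, adjusted p = 0.0023). In B16F10 it fell while H2-K1, H2-D1, B2m, Tap1, Tap2, Psmb8 and Psmb9 rose. In B16F0 the treated libraries, at 1.53 and 1.33 CPM, overlapped the untreated ones (0.15, 95% interval -0.33 to 0.63, adjusted p = 0.65). In MelanA Nlrc5 had 22 and 47 treated counts against 69 and 52, and the change was not called (-0.54, 95% interval -1.12 to 0.04, adjusted p = 0.12), although it was without treated replicate 2 (-1.14, adjusted p = 0.01).

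The immunoproteasome subunits split. Psmb9 rose most, in B16F10, from 173 and 156 to 435 and 429 counts (7.17 and 7.34 CPM), a change of 2.74-fold (log2 fold change 1.45, SE 0.19, adjusted p = 1.1e-07). In MelanA it had 1.58 and 1.56 CPM with SX-682 and rose by 0.67 (SE 0.22, adjusted p = 0.011), but by 0.40 without untreated replicate 1, which was not called (adjusted p = 0.21), and by 1.04 without untreated replicate 2. In B16F0 the treated libraries, at 1.05 and 1.23 CPM, were above the untreated ones by 0.38, which was not called (95% interval -0.12 to 0.88, adjusted p = 0.21). The part in these Psmb9 values of Tap1 reads from the 212 shared bases was not tested.

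Psmb8 was called only in B16F10, at 6.73 and 7.71 CPM with SX-682 (log2 fold change 0.48, SE 0.19, adjusted p = 0.034). The call was weak: DESeq2 gave an adjusted p of 0.073, and it was lost without untreated replicate 1 (0.26), untreated replicate 2 (0.051), treated replicate 1 (0.052) or treated replicate 2 (0.22). In B16F0 it had 26 and 17 treated counts against 38 and 19 (-0.08, 95% interval -0.78 to 0.61, adjusted p = 0.89). In MelanA it had 1 and 2 treated counts against 5 and 3, a ratio of 0.454 with a 95% counting interval of 0.0776 to 1.89, so no difference was detectable at this depth.

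Psmb10 went down in each line, to 25.3 and 26.5 CPM in MelanA, 10.8 and 11.6 in B16F0, and 23.8 and 26.7 in B16F10. All treated libraries were below the untreated ones of their line. The log2 fold changes were -0.42 in MelanA (SE 0.058, adjusted p = 4.2e-07), -0.68 in B16F0 (SE 0.071, adjusted p = 1.8e-09) and -0.65 in B16F10 (SE 0.06, adjusted p = 1.2e-10).

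A call in one line and not in another is not a difference between lines, so the difference was tested itself. With an F-test across the 3 lines, the change with SX-682 differed for 5 of the 10 genes, H2-K1, H2-D1, Tapbp, Psmb9 and Psmb10, beside 47.4% of all tested genes. Tapbp changed by 0.43 more on the log2 scale in B16F0 than in MelanA (SE 0.059) and by 0.43 more in B16F0 than in B16F10 (B16F10 minus B16F0 -0.43, SE 0.062), with an adjusted p of 5e-07 among lines. H2-K1 differed by 0.43 between B16F10 and B16F0 (SE 0.045) and H2-D1 by 0.21 (SE 0.044), both larger in B16F10 (adjusted p among lines 7.8e-09 and 4.4e-05). Psmb9 changed by 1.07 more in B16F10 than in B16F0 (SE 0.31, adjusted p among lines = 0.0089), and the test among lines was not passed without untreated B16F10 replicate 2 (adjusted p = 0.06). Psmb10 passed the test among lines (adjusted p = 0.02), but not without untreated MelanA replicate 1 or treated MelanA replicate 2. Its change in B16F0 minus that in MelanA was -0.27 (SE 0.092). This pair was not called without untreated MelanA replicate 1 (-0.22) or treated MelanA replicate 2 (-0.24). Nor was it called without untreated B16F0 replicate 2 (-0.25) or treated B16F0 replicate 1 (-0.22). For Tap1 the test among lines gave an adjusted p of 0.077, for Nlrc5 0.057, for Psmb8 0.21, for B2m 0.23 and for Tap2 0.99. Tap1 passed it with RLE scaling (0.048), with at least 10 counts in every library (0.032), or without MelanA untreated replicate 1 (0.039) or treated replicate 1 (0.035). Nlrc5 passed it with no filter (0.039), with at least 10 counts in every library (0.037), or when any single MelanA library was left out (0.01 to 0.042). B2m passed it with library totals (0.031) or without treated B16F0 replicate 2 (0.02).

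Each immunoproteasome subunit takes the place of a constitutive one, Psmb8 of Psmb5, Psmb9 of Psmb6 and Psmb10 of Psmb7. Per kilobase, Psmb8 was 0.0137% ± 0.0049 of Psmb5 in untreated MelanA, 0.0865% ± 0.033 in B16F0 and 1.21% ± 0.14 in B16F10 (SD, n = 2), and 1.79% ± 0.18 in treated B16F10. Psmb9 was 0.859% ± 0.12 of Psmb6 in untreated B16F10 and 2.10% ± 0.0028 with SX-682. In untreated MelanA and B16F0 it was 0.247% ± 0.088 and 0.256% ± 0.038. Psmb10 was a much larger share of its partner, 57.5% ± 7.4 of Psmb7 in untreated MelanA, 27.9% ± 1.15 in B16F0 and 56.8% ± 3.9 in B16F10. With SX-682 it was 45.1% ± 2.2, 17.1% ± 0.45 and 34.2% ± 3.3. Psmb7 itself changed by -0.07, 0.02 and 0.08 on the log2 scale in MelanA, B16F0 and B16F10, and was called in none of them. The group means of Psmb8 and Psmb9 stayed at 2.10% of the constitutive partner or less, whereas those of Psmb10 were 17.1% or more. With principal coding transcript lengths the limits were 3.72% and 7.54%, since each ratio is multiplied by 2.08 for Psmb8, 1.15 for Psmb9 and 0.441 for Psmb10.

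**Figure D4:**
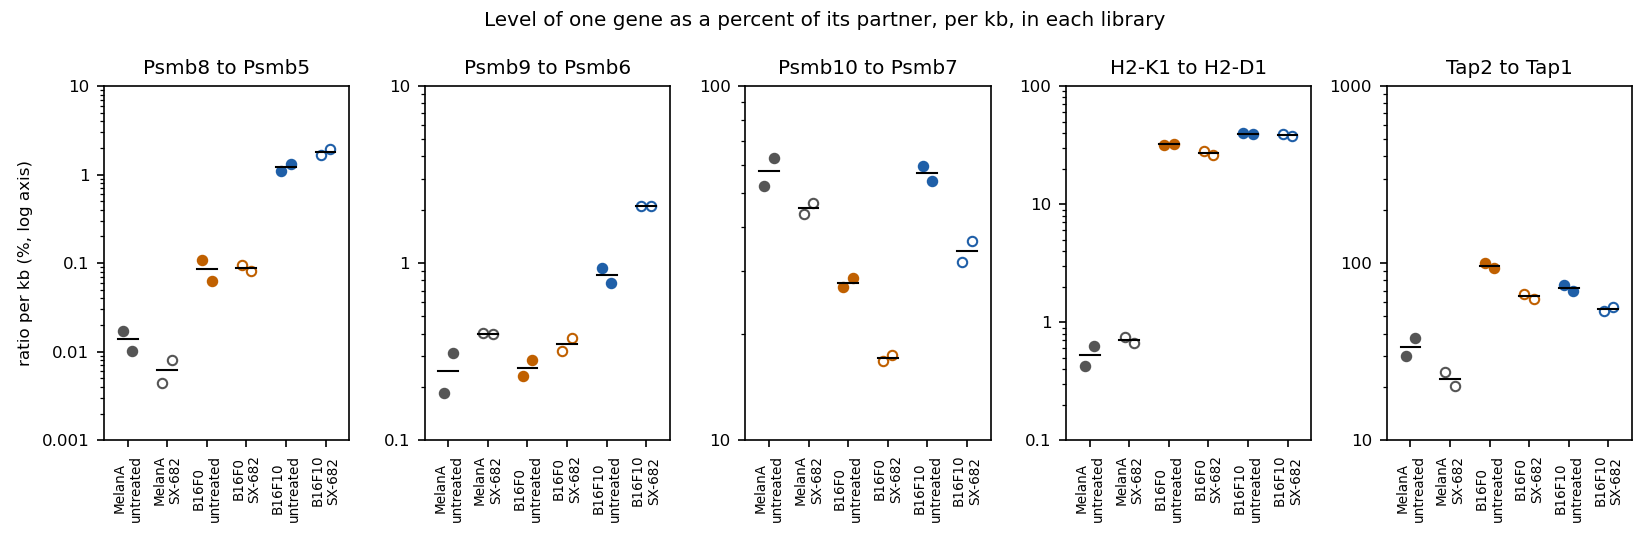
Level of one gene as a percent of a partner gene, both per kilobase, in each library on a log axis with a separate scale in each panel. Points are libraries, filled when untreated and open with SX-682, and bars are means of 2 libraries. Psmb9 to Psmb6 goes from 0.859% to 2.10% with SX-682 in B16F10, Psmb10 to Psmb7 is lower with SX-682 in each line, and H2-K1 to H2-D1 is below 1% in MelanA.

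Other genes of the pathway were counted from lists. Of all tested genes, 23.4% rose and 24.7% fell with SX-682 in MelanA, 25.1% and 25% in B16F0, and 25.5% and 25.3% in B16F10. In all 3 lines 11.3% rose and 11.7% fell. The same shares apply to each list below. Some list counts lay near them, such as the 3 and 3 of 13 heavy chain genes in B16F0. Of 13 other class I heavy chain genes that were tested, 4 rose and 0 fell with SX-682 in MelanA, 3 rose and 3 fell in B16F0, and 5 rose and 1 fell in B16F10. H2-K2 and Fcgrt rose in all 3 lines. H2-K2, a class I gene near H2-K1, had mean levels of 0.257 CPM in untreated MelanA, 4.40 in B16F0 and 0.459 in B16F10, and rose by 2.11, 1.09 and 1.35 on the log2 scale (SE 0.27, 0.17 and 0.27). Fcgrt, the neonatal Fc receptor, which also pairs with B2m, rose by 0.33, 0.37 and 0.68 (SE 0.038, 0.05 and 0.046). H2-T23, a nonclassical class I gene named here after its values were seen, had 1 and 2 counts in the untreated MelanA libraries, under the floor, and mean levels of 3.58 CPM in B16F0 and 4.63 in B16F10, whose libraries overlapped.

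Of 18 peptide loading and trimming genes, 10 fell and 4 rose in MelanA, 7 fell and 2 rose in B16F0, and 14 fell and 2 rose in B16F10. Calr, Pdia3 and Npepps fell in all 3 lines. Calr and Pdia3 encode the chaperone calreticulin and the oxidoreductase ERp57 of the loading complex, and both also serve general protein folding in the endoplasmic reticulum. Calr fell by 0.19, 0.40 and 0.81 on the log2 scale in MelanA, B16F0 and B16F10 (SE 0.018 in each), and Pdia3 by 0.09, 0.39 and 0.56 (SE 0.02, 0.021 and 0.021). The Pdia3 call in MelanA was lost without treated replicate 2 (-0.06, adjusted p = 0.061). Among 7 constitutive catalytic and PA28 proteasome genes, 4 fell and 0 rose in MelanA and in B16F0, and 3 fell and 2 rose in B16F10. Pomp, the proteasome assembly factor, fell by 0.45, 0.46 and 0.57 (SE 0.034, 0.033 and 0.033), and Psme3, a nuclear proteasome activator subunit, by 0.38, 0.15 and 0.27 (SE 0.029, 0.028 and 0.029).

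Of 32 regulators of class I transcription, 14 rose and 9 fell in MelanA, 14 rose and 10 fell in B16F0, and 15 rose and 10 fell in B16F10, and 9 rose and 3 fell in all 3 lines. Irf7, Relb and Irf1 moved most among those that rose throughout. Irf1, an interferon-induced activator of class I and Tap1 transcription, rose by 0.48, 0.79 and 0.97 on the log2 scale (SE 0.036, 0.045 and 0.044), and Relb, an NF-kappa B subunit, by 0.88, 1.08 and 0.99 (SE 0.047, 0.052 and 0.047). Irf7 rose by 0.80, 1.01 and 1.80 (SE 0.076, 0.16 and 0.16).

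Of 24 interferon targets, a list that includes Tap1, Psmb8 and Psmb9, 16 rose and 3 fell in MelanA, 15 rose and 1 fell in B16F0, and 15 rose and 3 fell in B16F10. In all 3 lines 11 rose and 0 fell, among them Rtp4 (0.56, 0.93 and 1.34 on the log2 scale) and Ifit3 (1.38, 0.56 and 0.86). Between untreated lines most of this list was lower in the B16 lines, unlike H2-K1 and H2-D1. In each B16 line 19 of the 24 were lower than in MelanA, with a median log2 difference of -2.78 in B16F0 and -3.57 in B16F10. Of all tested genes, 40.6% and 40.8% were lower in these comparisons. Rtp4 stood at 72.6 CPM in untreated MelanA against 1.59 in B16F0 and 1.41 in B16F10, and Ifit3 at 153 against 8.72 and 4.62. Higher than in MelanA were 3 of the list in B16F0 and 5 in B16F10. Among them were Tap1 and Psmb8 in both lines and Psmb9 in B16F10. A link between the interferon targets and the heavy chain levels was not tested. Of 6 tested class II presentation genes, 1 rose in MelanA, 1 in B16F0 and 2 in B16F10, and 0 fell. Of 10 melanocyte lineage markers, 3 rose and 5 fell in MelanA, and 0 rose and 9 fell in each B16 line. In all 3 lines 5 fell, among them Tyr, Mitf and Slc45a2. The Tyr value in MelanA rests on the low counts given above. The Slc45a2 call in MelanA (-0.20, adjusted p = 0.0051) was lost without untreated replicate 2 (-0.17, adjusted p = 0.062), without treated replicate 2 (-0.11, adjusted p = 0.28) or with the 4 MelanA libraries alone (adjusted p = 0.1).

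**Figure D5:**
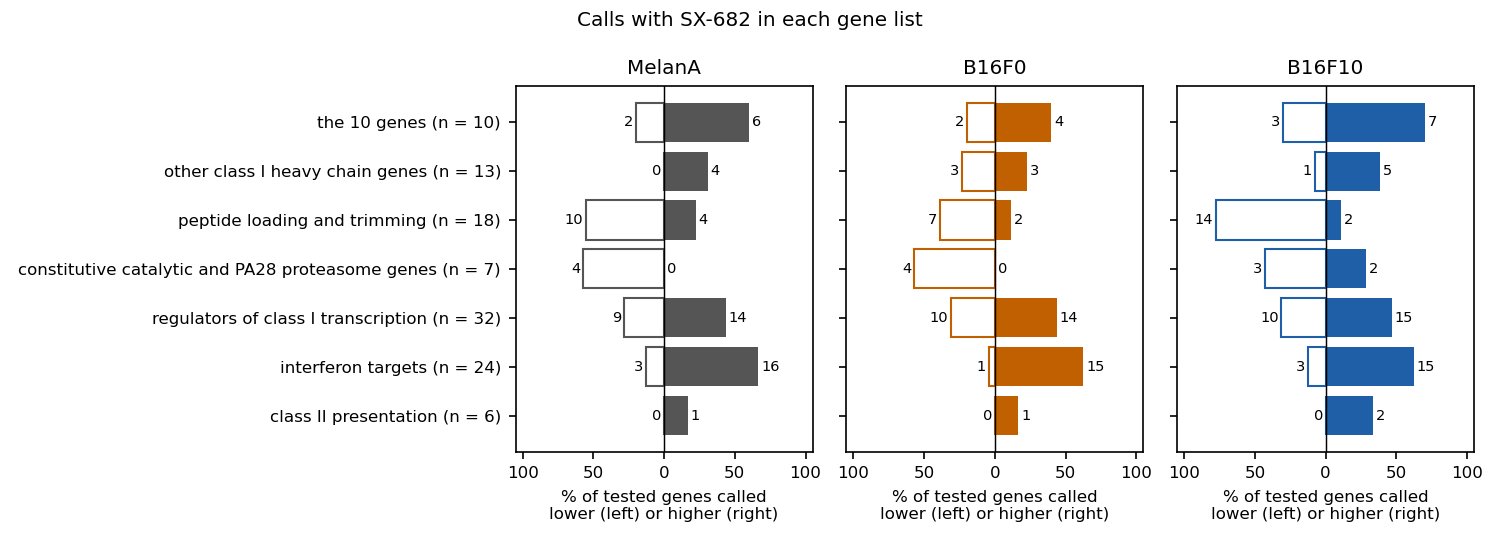
Share of the tested genes of each list that were called higher (filled, right) or lower (open, left) with SX-682 in MelanA, B16F0 and B16F10, as percent of the list, with the number of genes beside each bar. The 10 presentation genes and the interferon targets have more genes called higher than lower in each line, and the peptide loading and trimming genes more called lower. Over all tested genes, 23.4% to 25.5% were called higher and 24.7% to 25.3% lower in a line.

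Across the 12 libraries H2-K1 and H2-D1 were each the most like the other (Pearson r = 0.991 on log2 CPM), as were Nlrc5 and Psmb8 (0.951), B2m and Psmb9 (0.862) and Tapbp and Psmb10 (0.742). Tapbp ran against H2-K1 (-0.773). The libraries fall into 3 lines, so these values mostly order the lines, and they are given as a description. The mean profile of the 10 genes was most like those of Smagp (r = 0.998), Rnf113a2 (0.995), Iscu (0.993), Retreg1 (0.990) and R3hcc1l (0.990) among 11676 other genes over 12 libraries.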

How the data were processed

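The authors counted reads per gene and deposited these raw counts, without normalization, for 12 libraries on GRCm38 coordinates. Per the labels, cutadapt, STAR, DESeq2 and the mm10 build are named in the submitters' processing notes, and the counting program and strand setting are not given in the sources used here. Feature lengths were also deposited. Of the genes, 34422 had their identifier in GENCODE M21 and 34174 the same coordinates.

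Counts were tested with edgeR 4.0.16 (R 4.3.3): quasi-likelihood F-test on all 12 libraries, 6 groups, TMM scaling, edgeR's expression filter, prior count 0.125, Benjamini-Hochberg adjustment over 18338 genes, threshold 0.05. SE was derived from the F statistic. The biological coefficient of variation was 2.78%, with 6 residual and 21.9 prior degrees of freedom. An exact permutation test of 2 against 2 libraries cannot go below p = 0.333. CPM are counts divided by scaled library totals. The fit was tested on simulated data. Replicates differed by more than counting noise (chi-square per gene 2.87 to 5.25), so none was merged. Replicate numbers did not pair libraries (r from -0.028 to 0.052 between same-numbered deviations).

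The 10 genes and the lists were chosen with earlier results of these data known. All 10 genes are named. From each other list, up to 3 genes that passed in the same direction in all 3 lines are named, by mean absolute log2 fold change, with a mean log2 CPM of at least 1. Genes most like the 10 were the 5 with the highest correlation to their mean z-scored profile, on log2(CPM + 0.5). Markers of other cell types are given as counts or CPM, with no test, and melanocyte lineage genes were also counted as a list in the fit. Alternatives were DESeq2 1.42.0, RLE scaling, library totals, other filters, prior count 2, a replicate block, fits on the compared libraries alone, each library left out, and transcript length for levels and ratios, the last chosen after seeing the data. Promoter sequences are from RefSeq. Protein sequences were not used here.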

Additional observations from a re-analysis of the deposited data

Results flagged for a closer look

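The change with SX-682 differed among the 3 lines for 5 of the 10 genes in edgeR's F-test of the difference itself. That test singled these genes out. For each gene the pair of lines with the largest absolute difference was then taken. The sizes and p-values of these pairs are not corrected for that choice. For H2-K1 the log2 fold change in B16F0 minus that in MelanA was -0.93 (SE 0.24, adjusted p = 0.0023 for this pair and 7.8e-09 among lines). The MelanA side rests on 20 to 39 counts a library. The pair was not called without untreated MelanA replicate 1 (-0.70). For H2-K1 the pair B16F10 minus B16F0 had an adjusted p of 1e-08. For H2-D1 the change in B16F0 minus that in MelanA was -0.26 (SE 0.048, adjusted p = 6.9e-05 for the pair and 4.4e-05 among lines). For Tapbp it was 0.43 (SE 0.059, adjusted p = 8.5e-07 for the pair and 5e-07 among lines). Both treated B16F0 libraries of Tapbp were above both untreated ones, whereas those of MelanA were below. For Psmb10 it was -0.27 (SE 0.092, adjusted p = 0.023 for the pair and 0.02 among lines). That Psmb10 pair was not called without untreated MelanA replicate 1, treated MelanA replicate 2, untreated B16F0 replicate 2 or treated B16F0 replicate 1. For Psmb9 the change in B16F10 minus that in B16F0 was 1.07 (SE 0.31, adjusted p = 0.0082 for the pair and 0.0089 among lines). All values share the untreated and treated libraries of a line, and 47.4% of all tested genes passed the same test.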

How the results depend on the processing

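The counts of the 10 genes called stayed within 1.5 times the value reported in 134 of 138 recomputations. With SX-682 in MelanA the count was 8, and leaving out 1 library gave 5 to 9, the 5 without untreated replicate 1, where H2-K1, Tap2 and Psmb9 were lost. With a limit of 0.5 on the log2 fold change it was 3 in MelanA, 2 in B16F0 and 4 in B16F10, and over all genes 2989, 3561 and 3944 in place of 8831, 9187 and 9321. Under a replicate block the counts were 8, 6 and 10 with SX-682, 9, 10 and 10 between untreated lines and 5 among lines, with no call changed. Of the recomputed log2 fold changes of the 10 genes and the named list genes together, 2243 kept direction and side of the threshold. In 43 the call was lost and in 2 it was gained. Direction turned in 3, all uncalled: B2m with SX-682 in B16F0 (-0.0018 without treated replicate 2, 0.0721 without treated replicate 1, the extremes when 1 library was left out), Psmb8 there (0.41 without untreated replicate 1, -0.43 without untreated replicate 2) and Psmb9 in untreated B16F0 against MelanA (0.18 without untreated MelanA replicate 2, -0.47 without replicate 1). The cause was not tested. No other count over all genes moved by more than 1.5 times. Depth limits Psmb8 and H2-K1 in MelanA, at 1 to 5 and 20 to 39 counts a library. Of the levels per kilobase, 61 of 120 moved by more than 1 SD with RLE scaling or transcript length, as did 29 of the 30 group ratios with transcript length, each pair by a constant factor.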
